A study of Talpa occidentalis and Mus musculus with 35 samples.

Results

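The draft genome assembly talOcc3 of the Iberian mole, Talpa occidentalis, was broken into many pieces, and the gene models on its shortest pieces are described here. For each scaffold, a stretch of assembled sequence, the largest end position over all of its annotation lines was taken as its last annotated base. Scaffolds with a last annotated base below 50000 were called short, and the others long. There were 1914 short scaffolds among 2074, and they carried 2411 gene lines. Of these, 427 named after genes of the mitochondrial genome were left out by name. The remaining 1984 gene models, on 1615 short scaffolds, were set beside the 20919 models on the 160 long scaffolds, out of 23336 gene lines in all.

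The annotation belongs to a series of 35 polyadenylated RNA libraries from gonads, 19 of the mole and 16 of the mouse, in 16 groups. The mole groups, all wild type, were ovotestis and testis at embryonic day 15, and ovary part, testis part and testis at postnatal day 7 and in adults. The mouse groups were wild-type CD1 ovary and testis at embryonic day 13.5, at postnatal day 7 and at 10 weeks, and ovaries of embryonic day 13.5 titled Fgf9 mutant with wild-type controls titled B6. Strain labels of the last 4 libraries each carry a different C57BL number. In the mole, females develop gonads with an ovarian and a testicular part, which is the question the series addresses. No value of any library was analysed here, so the results concern the annotation alone, with no replicates and no test. Shares carry 95% exact binomial intervals and medians carry 95% order-statistic intervals. These cover counting error only, and models that share a template or a sequence are not independent.

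A draft assembly places most genes on long scaffolds, and what could not be joined stays behind as short pieces. Such pieces commonly hold repeats, recent duplicates, pieces of the mitochondrial genome and the ends of genes that a gap has cut. A retrocopy is a copy of a gene made by reverse transcription of its spliced RNA, so it lacks the introns of its parent. A coding length that is not a multiple of 3 is not a whole number of codons, which can occur in decayed copies and in models cut at a scaffold end.

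The members were chosen by scaffold extent and by name, so short genes and few exons are partly set by that choice: a gene longer than its scaffold could not be annotated on it. The last annotated base of the members' scaffolds had a median of 1556 bases (95% interval 1391 to 1682), with a range from 120 to 49949. It is a lower bound on scaffold length. Higher scaffold numbers went with smaller annotated extents over all 2074 scaffolds (Spearman's rho = -0.829, a description), and the highest-numbered long scaffold was number 244. Of the short scaffolds, 32 had a lower number than that, the lowest being 76, and they carried 48 members. Whether those scaffolds are short in sequence was not tested.

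Near the limit, the members just inside it were a model of the pseudogene BMS1P20 on scaffold 176 (last annotated base 49826), a model of TRIM38 on scaffold 243 (49906) and 2 unnamed models on scaffold 198 (49949). Just outside it stood 2 unnamed models on scaffold 185 (50020), ZNF207, a zinc finger gene with 10 exons on scaffold 207 (50393), and an unnamed model on scaffold 203 (51171). Most short scaffolds with a member, 1229 of 1615, carried a single gene line, and the fullest carried 6.

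**Figure D1:**
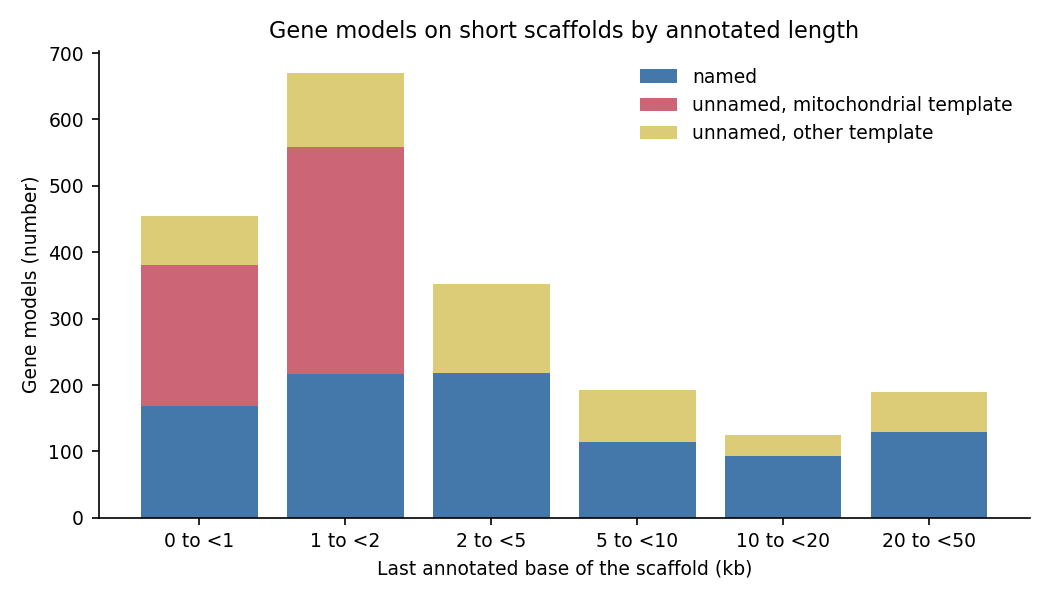
Number of gene models on short scaffolds (y axis) by last annotated base of the scaffold in kb (x axis), stacked by kind: named, unnamed with a template shared with a mitochondrially named locus, and other unnamed. The 556 unnamed models with a mitochondrial template all sit in the 2 lowest classes, 213 below 1 kb and 343 from 1 to below 2 kb.

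Most members had no gene symbol. The unnamed share was 52.7% (1045 of 1984, 95% interval 50.4 to 54.9) on short scaffolds, against 3.83% (801 of 20919) on long ones and 8.06% over all models without mitochondrial names. Most unnamed members, 1009 of 1045, carried instead the identifier of the protein from which the alignment program exonerate had built them. These template identifiers came from several protein sets, of which the mouse one could be matched to genes.

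Pieces of mitochondrial genes formed the largest kind of unnamed member. Of the 1045, 556 (53.2%, 95% interval 50.1 to 56.3) had been built from 1 of 42 template proteins that also built a locus named after a mitochondrial gene. The corresponding counts were 12 of 801 unnamed models on long scaffolds (1.5%) and 0 of 939 named members. All 556 had 1 exon and were labelled exonerate. Their scaffolds were annotated to a median of 1013 bases and at most 1905. Their coding length had a median of 572.5 bases, which filled a median of 60.1% of the annotated scaffold. The exclusion of mitochondrial genes by name therefore removed 427 models and kept 556 with the same templates.

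The mouse templates gave a check that does not use the mole names. Of 114 unnamed members built from a mouse protein, 113 matched a protein of the mouse annotation, and 102 of these were encoded by the mouse mitochondrial chromosome. By gene, 24 came from mt-Atp6, a subunit of ATP synthase, 22 from mt-Cytb, cytochrome b of respiratory complex III, 20 from mt-Co3 and 17 from mt-Co2, subunits of cytochrome c oxidase, and 11 from mt-Nd1, a subunit of complex I. The other 11 matched nuclear genes with 1 model each, among them Vmn1r90, Vmn1r212 and Vmn1r214 of the vomeronasal receptors, the T cell receptor segments Trav5-1 and Trbv17, and the retrotransposon-derived gene Rtl1. In the same check, 0 of 43 named members and 44 of 44 mitochondrially named models on short scaffolds matched the mouse mitochondrial chromosome. Of the 102, 4 lay outside the 42 shared templates, 3 from mt-Nd3 and 1 from mt-Nd6. No locus anywhere in the annotation was named ND3, ND4, ND5 or ATP8.

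On the 42 shared templates, strand separated the unnamed mitochondrial pieces from the named models. Mitochondrial templates that built no named locus are not among these pieces, so the split describes the 42 templates only. Among the 556 unnamed pieces, 525 lay on the minus strand and 31 on the plus strand, against 0 on the minus strand and 427 on the plus strand among models with a mitochondrial name. Named and unnamed models built from the 42 templates on short scaffolds were nearly balanced when pooled, with 525 on the minus and 458 on the plus strand. A single protein shows the same split. Of the 42 templates, a hedgehog protein gave more unnamed members than any other, 46 on the minus strand and 1 on the plus strand. It also built 46 models named COX1, all on the plus strand. Over all members, 62.5% lay on the minus strand, against 50% of long-scaffold models, beside 51.1% over all models without mitochondrial names. That pooled share mixes unlike kinds: 94.4% of the unnamed mitochondrial pieces, 63.4% of other unnamed members and 43.1% of named members.

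The same asymmetry appeared among named members when they were split by the scale of the reference interval. The deposited naming gives an interval on the model and one on a reference transcript. In 136 named members the first was more than 2 times as long as the second, which was read as a reference counted in amino acids (protein scale). Of these 136, 3 lay on the minus strand and 133 on the plus strand. The 802 named members with both intervals on the nucleotide scale lay 401 on the minus and 401 on the plus strand. Long-scaffold models with a protein-scale interval numbered 27 on the minus and 291 on the plus strand. Names from a protein-scale match were therefore rare on the minus strand throughout the annotation. The naming step was not given in the sources used here, and the cause was not tested.

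**Figure D2:**
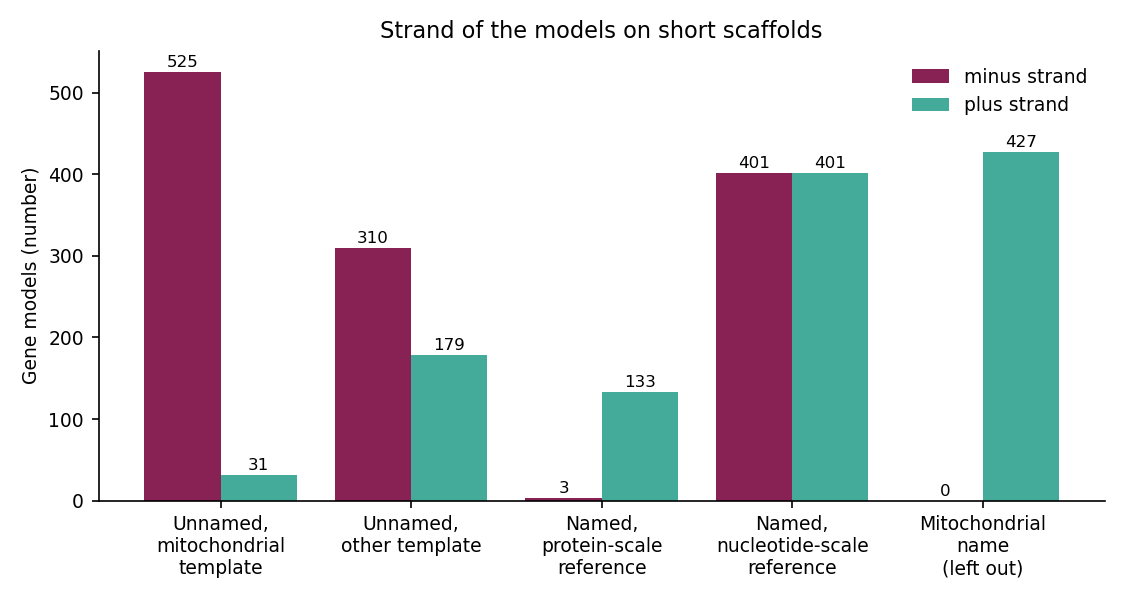
Number of models on short scaffolds by strand (y axis) for 5 kinds (x axis), minus strand left and plus strand right; mitochondrially named models were left out of the members. Unnamed mitochondrial pieces counted 525 minus and 31 plus, mitochondrially named models 0 minus and 427 plus, and nucleotide-scale named members 401 of each.

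Position on the scaffold also set the mitochondrial pieces apart. Of the members, 305 (15.4%) began within the first 3 bases of their scaffold, against 0 of 20919 long-scaffold models. With only 160 long scaffolds, few of those models could begin there, so this contrast follows largely from the choice of members. Of the 305, 212 were unnamed mitochondrial pieces. The share was 38.1% of the 556 pieces, 6.54% of other unnamed members and 6.5% of named members. These kinds were not matched for scaffold extent, whose medians were 1013, 3018 and 2757 bases. Only 57 of the 556 pieces shared a scaffold with a mitochondrially named locus. Alike models recurred across scaffolds. Of the 1009 unnamed members with a template, 215 shared template, strand, exon number and coding length with a member on another scaffold, in 56 sets; they have no score to compare. Of the 601 named members labelled exonerate, 37 in 17 sets also shared the score and the reference interval. One unnamed set was 12 minus-strand models of 681 coding bases built from the mouse mt-Co2 protein.

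Of the other 489 unnamed members, 453 came from 89 template proteins and 36 had none. The 5 most used templates accounted for 231 of the 453, while 54 templates gave 1 member each. One of these, a protein that gave 56 unnamed members on 49 scaffolds, also built models named LOC107986724, XYLB, LOC107983994 and LOC105369972. An elephant protein built 54 unnamed members on 54 scaffolds, of median 348 coding bases, 29 on the minus and 25 on the plus strand, and no named model anywhere. Its scaffolds were annotated to a median of 1001.5 bases and at most 1743, close to the extent of the mitochondrial pieces. The identifier of that protein lies between those of elephant proteins that built loci named COX3 and ND4L. The files give it no gene name, and it was not counted among the mitochondrial pieces. Whether it is mitochondrial was not tested. Some other templates without a named model also lie between identifiers of templates that built mitochondrially named loci. Among them was an elephant protein with 6 unnamed members. The 4 members built from mouse mt-Nd3 and mt-Nd6 proteins also stay among the 489, so the count of 556 is too low. In 281 of the 489 models (57.5%), the template had also built a model with a symbol. The minus strand held 310 of the 489, against 509 of the 801 unnamed models on long scaffolds.

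Most members were single-exon models. The share was 75.6% (1500 of 1984, 95% interval 73.7 to 77.5) on short scaffolds, against 18.4% (3840 of 20919, interval 17.8 to 18.9) on long ones, and 23.3% over all models without mitochondrial names. It fell with scaffold extent, 93.6% below 1000 bases, 90.3% from 1000 to below 2000, 66.2% to below 5000, 53.1% to below 10000, 44% to below 20000 and 41.6% to below 50000. Members with more than 10 exons numbered 13 (0.655%), against 5773 (27.6%) on long scaffolds. The members' median coding length was 522 bases (interval 498 to 539), against 1095 (1083 to 1113).

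**Figure D3:**
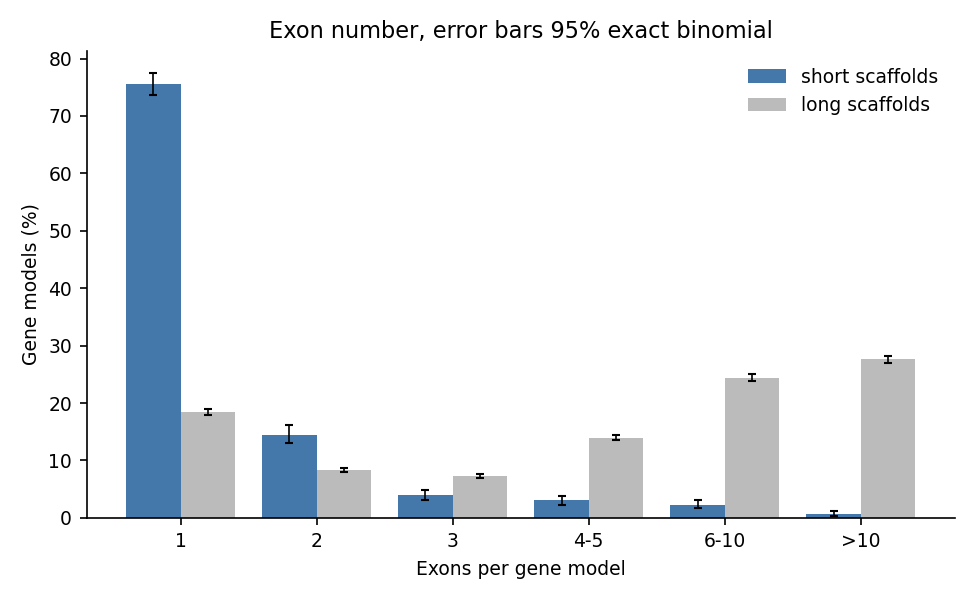
Percent of gene models (y axis) by number of exons (x axis), short scaffolds left and long scaffolds right; bars are shares and error bars 95% exact binomial intervals. Single-exon models made up 75.6% on short scaffolds and 18.4% on long ones, while models with more than 10 exons made up 0.655% and 27.6%.

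Labels moved with these shares. Of the members, 81.2% were labelled exonerate, 13.3% EVM and 5.54% ALN, against 18.6%, 70.4% and 11% of long-scaffold models. Within the label exonerate, 88.1% of members and 73.6% of long-scaffold models had 1 exon. Within EVM the shares were 7.955% and 0.36%, and within ALN 55.5% and 39.8%.

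A coding length divisible by 3 was less common on short scaffolds. Without sequence, stop codons and shifts that cancel each other are not seen. A coding length that is a multiple of 3 was found in 68.8% of members (1365 of 1984, 95% interval 66.7 to 70.8) and in 90.05% of long-scaffold models (18838 of 20919, 89.6 to 90.5), beside 88.2% over all models without mitochondrial names. The difference was small within exonerate models, 68.8% against 71.7%, and wide within EVM models, 67.8% (interval 61.8 to 73.4) against 95.4% (95.03 to 95.71). ALN models gave 71.8% against 87.05%. Members labelled EVM had a median of 3 exons. A coding length divisible by 3 was found in 62.05% of unnamed mitochondrial pieces, 75.3% of other unnamed members and 69.4% of named members. Members that began within the first 3 bases of their scaffold gave 76.4%, and those that began later 67.4%.

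Named members mostly repeated symbols that also stood on long scaffolds. They numbered 939 models of 419 symbols. Of these models, 855 (91.05%, 95% interval 89.0 to 92.8) had a locus of the same symbol on a long scaffold, and 841 had one on a scaffold annotated to 1000000 bases or beyond. For comparison, 30.6% of named long-scaffold models had another long-scaffold locus of their symbol. Counted by symbol, 354 of the members' 419 had a long-scaffold locus (84.5%, interval 80.7 to 87.8). Short scaffolds held 4.46% of all named models without mitochondrial names.

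The deposited score of a model was set against the highest score that the file states for its symbol, which differed from the maximum over the symbol's loci in 42 of 938 members. The members' median was 60.8% of that highest score (938 members with a score, interval 57.2 to 64.6). A member was the best-scoring locus of its symbol in 129 of 938 cases (13.75%, interval 11.6 to 16.1), against 80.3% on long scaffolds, beside 77.3% over all scored models without mitochondrial names. For a closer comparison, members that were not the best locus were set beside long-scaffold loci that were not. They had 1 exon in 59.75% against 48.5%, a coding length divisible by 3 in 68.5% against 79%, and a median of 52.7% against 57.6% of the highest score. Score per aligned reference base was taken only where the reference was on the nucleotide scale. Among these lesser loci its median was 0.962 (682 members, interval 0.923 to 1) against 1.028 (3744 long-scaffold loci, 1.015 to 1.048). The gap to lesser loci on long scaffolds was thus narrower than the gap to all nucleotide-scale long-scaffold models. Their median was 1.22 per base (19779 models), against 0.956 for the 802 nucleotide-scale named members. Labels still differed: members that were not the best were 67.41% exonerate and 22.96% EVM, against 45.55% and 35.08% of lesser long-scaffold loci. Protein-scale references made up 15.7% against 5.57%. Label and scaffold extent were not separated in this comparison.

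Most copies covered a part of the transcript that the long-scaffold locus covered already. In 669 of 854 scored copies, the member and the best long-scaffold locus were aligned to the same reference transcript. The member's interval lay wholly inside that of the long locus in 406 (60.7%) and at least 90% inside in 545 (81.5%). It spanned a median of 77.2% of the long locus's interval. The copies had a median of 489 coding bases, against 1122 for their best long-scaffold loci, and a median of 1 exon against 3. In 420 of 854 (49.2%) the copy had 1 exon while the best long locus had several. Retrocopies have that structure, as does a single exon cut out by a scaffold's ends, and which of them applies was not tested.

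**Figure D4:**
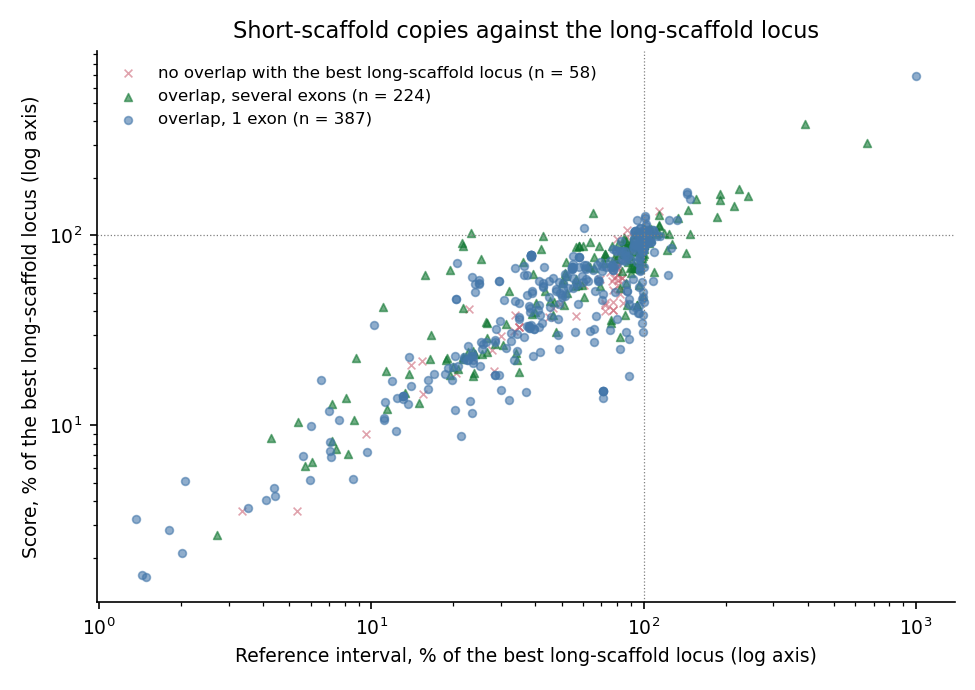
Score of each short-scaffold copy (y axis, log) against the length of its reference interval (x axis, log), both as percent of the best long-scaffold locus on the same reference transcript, for 669 copies. Points gather at or below 100% on both axes, and 3 copies stand above 300% in score.

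Some copies scored as high as the long-scaffold locus or higher. Of 854 copies, 192 (22.5%) reached 90% of the best long locus's score, 88 of them with several exons, and 91 (10.7%) exceeded it. Only 669 of the 854 shared the reference transcript of that locus, and copies with a protein-scale reference were counted too. Whether scores on unlike references can be compared was not tested. OR4D10, an olfactory receptor gene, had a score of 831 on scaffold 15542 (bases 202 to 1132) and of 120 at its best long locus, where 126 coding bases were annotated. ZBED9, a gene derived from a transposase, had 5 exons and a score of 2600 on scaffold 746 (bases 1295 to 14088), against 3 exons and 676 on scaffold 48. ZNF514, a zinc finger gene, scored 817 on scaffold 829 and 265 on scaffold 9, with 4 exons at both. For these 3 symbols, chosen after their values were seen, the fuller model lay on the short scaffold.

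Copies of multi-exon genes were among the members with most exons. SLC34A2, a sodium-phosphate cotransporter, had 2 models on scaffold 275, on opposite strands: 14 exons and a score of 2115 at bases 344 to 15257, and 11 exons and 1750 at bases 22515 to 32571. Both exceeded the 1652 of the 14-exon locus on scaffold 10. PES1, a ribosome biogenesis factor, had 13 exons and a score of 1864 on scaffold 786, against 10 exons and 1269 on scaffold 27. PES1 had 10 models on 6 short scaffolds, all with several exons, and 2 on long ones. CYP4V2, a fatty acid hydroxylase, had 11 exons at both places, with 1619 on scaffold 447 against 1742 on scaffold 13. LRRK1, a protein kinase, had 11 exons on scaffold 714 and 28 on scaffold 33, with scores of 2405 and 4750. DDX60, an antiviral helicase, had 17 exons on scaffold 362 but only 7.09% of the symbol's highest score.

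The highest-scoring members of all were pieces of GVINP1, named after a human pseudogene of the very large interferon-inducible GTPases. The best of its 10 members scored 4884 on scaffold 296 with 5810 coding bases, against 6465 for the locus on scaffold 18 with 7287 coding bases. All 10 lay on the plus strand. RC3H1, which encodes the RNA-binding protein roquin, scored 2025 with a single exon on scaffold 481, against 4970 with 18 exons on scaffold 5. Among members whose highest-scoring locus was on a long scaffold, or tied with one there, MOCS2, of molybdenum cofactor synthesis, had 1 exon on scaffold 11549 and 5 exons on scaffold 8, with a score of 744 and reference bases 231 to 785 at both. IFNW1, an interferon, scored 400 on scaffold 20105 against 401 on scaffold 15, each with 585 coding bases. IRS2, an insulin receptor substrate, and USMG5, a small subunit of ATP synthase, tied with their long loci at 117 and 222.

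In 58 of the 669 copies the member shared no reference base with the best long locus, and in 14 it shared none with any long locus of the symbol. These 14 models covered a part of the reference transcript that no long-scaffold locus aligned to it covered. VPS54, a subunit of the GARP tethering complex, had 3 such models. They lay at reference bases 1376 to 2312, 1376 to 2214 and 1664 to 1903 on scaffolds 574, 754 and 18061, with 7, 6 and 1 exons, while the locus on scaffold 9 covered 164 to 1180 with 6 exons. HOXC12, a homeobox gene of the HOXC cluster, covered reference bases 63 to 332 with a model that filled bases 1 to 270 of scaffold 8481, while its lower-scoring locus on scaffold 34 covered 672 to 908. WDR63, an axonemal dynein gene, covered 1758 to 1988 on scaffold 2431, while scaffold 2 covered 265 to 1756. PLIN2, a lipid droplet coat protein, ended at reference base 522 on scaffold 950 and began at 524 on scaffold 15. In the last 2 genes 1 base separated the intervals.

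DMD, the dystrophin gene, was a further case, with 2147 to 2329 on scaffold 1429 and 2549 to 7994 on scaffold 24. Others were SULF2, CDC25C, MED25, GLIPR1L2, ADGRE3 and MCPH1, with gaps between the intervals of 15 to 614 reference positions. Of the 14 models, 9 had 1 exon. Whether a short scaffold is the missing neighbour of the long locus was not tested.

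**Figure D5:**
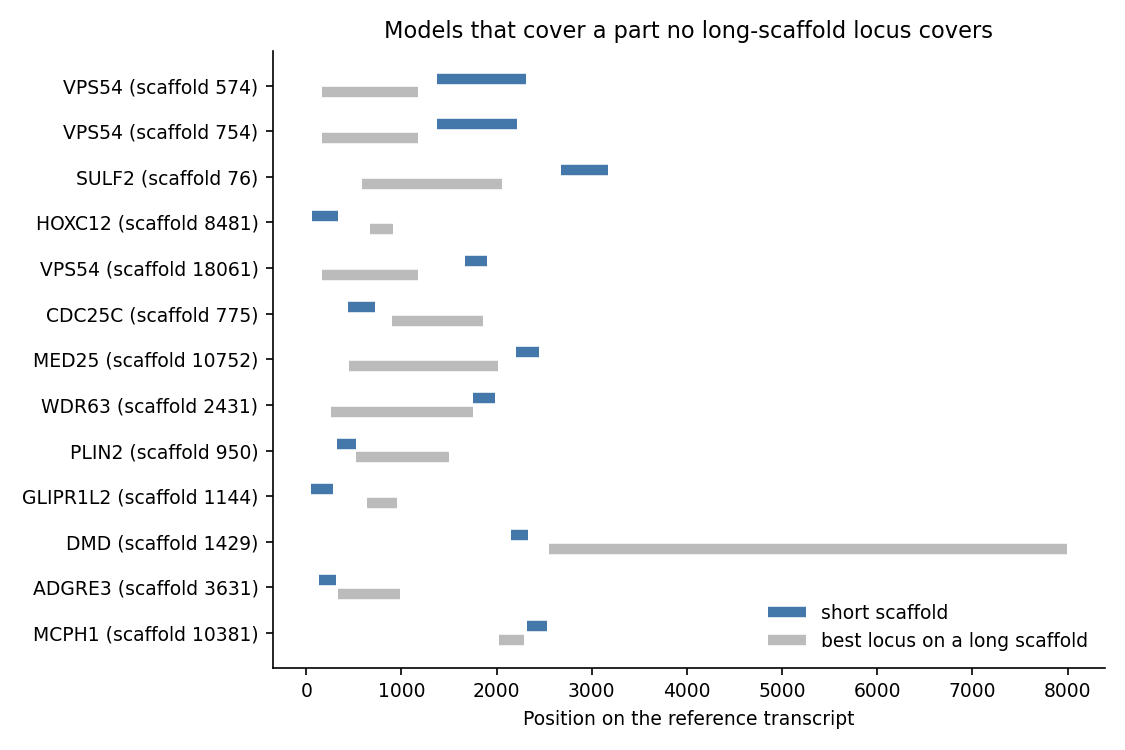
Reference-transcript positions (x axis) covered by 13 of the 14 short-scaffold models (upper bar of each pair) and by the best long-scaffold locus of the same symbol (lower bar), 1 row per model with its scaffold number. The bars of a pair never overlap, and those of WDR63 and PLIN2 almost meet.

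For 65 symbols, with 84 models, no locus stood on a long scaffold. These models had a median of 2 exons and 585 coding bases, and 46 of 84 had several exons (54.8%, 95% interval 43.5 to 65.7). HELZ2, a helicase and nuclear receptor coactivator, had 12 exons and 5076 coding bases on scaffold 1212 (bases 58 to 9886). MRE11, the nuclease of the MRN complex in DNA break repair, had 17 exons on scaffold 191 (bases 11892 to 41769), beside ANKRD49 at bases 45405 to 47184. KRT75, a hair follicle keratin, covered reference bases 1 to 1444 with 8 exons on scaffold 945. ZXDB, FBXL16 and SDF4, which encode a zinc finger protein, an F-box protein and a calcium-binding protein of the Golgi, had 2, 4 and 6 exons.

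Further genes without a long-scaffold locus were TAF8, a subunit of the general transcription factor TFIID, with 8 exons, and RAB8A, a small GTPase of membrane traffic, with 8 exons. SOX7, a transcription factor of endothelial development, filled bases 1 to 801 of scaffold 10386 with 1 exon. ADAM6, a gene of the ADAM protease family, had 2 models on scaffold 347 with 2161 and 2157 coding bases, each with a score of 291. Of the 65 symbols, 53 had a single model. Among the gene names of a later mole assembly, 35 of the 65 symbols occurred (53.8%, interval 41.0 to 66.3), against 225 of 354 member symbols with a long locus (63.6%) and 13964 of 16122 long-scaffold symbols (86.6%). HELZ2, MRE11, ZXDB, FBXL16, TAF8, RAB8A and SOX7 were among the 35, and KRT75 and ADAM6 were not.

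A few symbols made up much of the named set. While 313 of 419 symbols had 1 member each, the 10 most repeated symbols had 283 of the 939 models. LOC105379528 led with 65 models on 61 short scaffolds against 1 on a long one. LOC107986724 had 39 against 56, the pseudogene BMS1P20 had 38 against 24, and the olfactory receptor OR14A16 had 26 against 29. PTCHD3, a patched-domain gene, had 26 against 2. ZNF658 and ZNF658B, zinc finger genes, had 16 against 5 each, LOC107983994 had 19 against 14, and LOC107986994 had 16 against 12.

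RNA45S5, the precursor of ribosomal RNA, had 22 models on short scaffolds and 1 on a long one. All lay within reference bases 4634 to 5322, 12 on the minus and 10 on the plus strand, and 6 equalled the 587 score of the long-scaffold locus. These coding models thus carry the name of a gene whose product is not translated, and the 6 were built from a bat protein. XYLB, xylulokinase, had 11 models, all single-exon, on the plus strand and with a protein-scale reference. Their scores were 103 to 149, or 11.9 to 17.2% of the 867 stated as the highest score for these models. The symbol's best locus, with 19 exons on scaffold 12, reached 1921, of which they had 5.36 to 7.76%. Whether scores on unlike reference scales can be compared was not tested. XYLB neighboured LOC107986724 or LOC107983994 in 9 of 43 pairs of differently named neighbours on 41 short scaffolds. Of those 43, 11 had both symbols in mouse, and 3 were also neighbours there: CASP1 with CASP4, inflammatory caspases, GUSB with VKORC1L1, and PDGFRL with MTUS1. Symbols were matched by spelling, so genes named otherwise in mouse were missed. MRE11 with ANKRD49 was not among the 11.

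The 5 fullest short scaffolds carried mainly these repeats. Scaffold 292 held 5 members, among them VN1R4 at 2 loci and VN1R3, pheromone receptor genes of the vomeronasal organ. Scaffold 378 held 3 unnamed models and 3 of OR14A16, with 36.2, 82.7 and 78.1% of its highest score. The members of scaffolds 1268 and 179 were all unnamed, and scaffold 1604 added a model of LOC107984745 to its unnamed ones.

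Gene families differed in how much of them lay on short scaffolds, beside 4.46% for all named models. Of the loci of immune receptor and major histocompatibility genes, which present or sense antigens, 36 of 146 lay there (24.7%), and 4 of the 36 had 1 exon. HLA-B scored 902 with 7 exons on scaffold 784, above the 577 of its best long locus. Zinc finger genes had 85 of 401 loci there (21.2%), 64 with 1 exon, led in score by ZNF652, ZNF514 and ZKSCAN7. Vomeronasal type 1 receptors had 7 of 10, names of endogenous retrovirus envelopes 9 of 26 and uncharacterized LOC names 167 of 414. TRIM38 had 11 of 63, at a median of 22.2% of its highest score, and other TRIM genes, of ubiquitin ligases in innate immunity, had 13 of 75.

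Olfactory receptors, whose coding part normally sits in a single exon, had 65 of 893 loci on short scaffolds (7.28%), 58 of them single-exon, led in score by OR5A2, OR4P4 and OR5F1. Keratins and keratin-associated proteins had 8 of 97 (8.25%), 5 of them the best locus of their symbol, led by KRT75 and KRTAP13-1. Cytosolic ribosomal protein genes, which give rise to many retrocopies, had 17 of 514 (3.31%), all with 1 exon and a median of 96.4% of the highest score, RPSA and RPL9 among them. RPSA, of the small ribosomal subunit, scored 1369 with 1 exon on scaffold 10730, above the 1312 of the 7-exon model on scaffold 12. Other genes prone to retrocopies had 8 of 305 (2.62%), led by ANXA2, TUBA1B and NACA, and histone genes 1 of 44.

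Lists of genes tied to the gonad and its sex chromosomes had few loci, and their counts are given without a reading against the 4.46% of all named models. Of 40 loci of 37 gonad transcription factors, signals and steroid enzymes, 1 lay on a short scaffold (2.5%): SOX10, a relative of SOX9, on scaffold 11189 with 2 exons and 58.7% of the highest score. Of 7 loci of Y-linked genes of mammals, 1 lay there: KDM5D, a histone demethylase, on scaffold 11040, with 2 exons, reference bases 1576 to 1835 and 7.83% of the score of the 26-exon locus on scaffold 69. NANOG, a pluripotency factor, had 1 of the 21 loci of its list, on scaffold 2745 with 3 exons and 81.5% of the highest score. The X-linked partners of Y genes had 0 of 31 loci on short scaffolds, and nuclear genes of mitochondrial DNA maintenance 0 of 10.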

How the data were processed

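The series holds 35 RNA libraries, prepared by standard Illumina methods per the labels' protocols. STAR 2.6.1d and mm9 appear in the submitters' processing notes, without a role. The file analysed is the talOcc3 annotation deposited by the authors. It has no column of a library, so 0 per-sample columns were left unused, the depth is unknown, and differential expression between groups was not run.

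Positions are 1-based on talOcc3, as deposited. Nearly all named transcripts carry a score set by the authors, with a reference interval and the symbol's highest score. What it counts, and how models of the labels EVM, exonerate and ALN arose, was not given in the sources used here. In 99.1% of scored named models, the stated highest score equalled the maximum over the symbol.

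Gene lines were joined to transcripts and coding parts in Python 3.11.15 with pandas 2.3.3, and the join and counts were tested on simulated data. Suffixes for copies were removed from names. Intervals used scipy 1.17.1. A reference was taken as counted in amino acids where the model interval was over 2 times longer, and its aligned bases as 3 times the interval. Models with such a reference were left out of the score per aligned base. Mouse proteins and gene order came from GENCODE M21, and later mole gene names from a RefSeq table of another assembly, used for names only. No sequence of talOcc3 was used here. The members, gene lists and comparisons were chosen with earlier results of these data known. Named genes are the 10 with most exons, highest score, longest coding length without a long-scaffold locus, most loci, or highest percent of a score whose best locus is long; the members of the 5 fullest scaffolds; the neighbours of the limit; and all members of small lists or the 3 highest-scoring of others. Genes with no overlap with the long loci, neighbouring pairs, TAF8, RAB8A, SOX7, XYLB and those called chosen after their values were seen, fall outside that rule. So do the lists of vomeronasal receptors, retrovirus names, LOC names and TRIM genes other than TRIM38. A few items the rule names are not reported here. Alternatives changed the scaffold limit, names, labels, length filters and the definition of a copy.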

Additional observations from a re-analysis of the deposited data

How the results depend on the processing

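The 9 main values were recomputed under 15 alternatives, which gave 80 values: 47 stayed within the main value's interval, or within 1.5 times of a count, and 33 moved beyond it. With models labelled EVM only, 264 members remained; their share with a long-scaffold locus was 84.2%, with a single exon 7.955%, best-scoring 18.4% and unnamed 13.6%, with a median of 570 coding and 447 aligned bases. With scaffolds of a single gene line, 1229 members remained, 71.7% with a single exon and 40.4% unnamed, with 367 aligned bases. Keeping mitochondrial names gave 83.5% with a long-scaffold locus, 79.9% single-exon, 43.3% unnamed and 450 aligned bases. A limit of 10000 bases gave 81.85% single-exon, 57.1% unnamed, 55.1% of the highest score and 360 aligned bases. A limit of 20000 gave 79.2% single-exon and 54.9% unnamed, and one of 100000 gave 73.2% single-exon. A coding length of at least 300 gave 65.3% with a coding length divisible by 3, 615 coding and 496 aligned bases and 67.7% of the highest score. With names as written, copy suffixes kept, 1.17% had a long-scaffold locus. Requiring the long locus to score at least as high gave 81.3%, and counting ties as not best gave 10.7% best-scoring. Leaving out the unnamed models on mitochondrial templates, an alternative added after seeing the data, gave 66.1% single-exon, 71.4% divisible by 3, 480 coding bases and 34.2% unnamed. Taking the maximum over a symbol's loci as its highest score, also added later, gave 59.0% of it and 13.4% best-scoring. Each alternative changes, by construction, which models are counted or what counts as a copy.

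No paired analysis was possible because no value of any library was analysed here; the alternatives for expression (normalization, filters, left-out replicates) were not run. The last annotated base stands in for scaffold length, model counts depend on how names were given, and without sequence, duplicates in the genome and unjoined copies of 1 locus cannot be told apart.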
